A study of Mus musculus with 6 samples.

Results

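The genes described here encode the MCM replicative helicase and the proteins that load and control it: Mcm2, Mcm3, Mcm4, Mcm5, Mcm6, Mcm7, Mcm10, Cdc6, Cdt1 and Gmnn. They were taken by gene name from the deposited expression table. All 10 were found, each as a single gene identifier, among 55471 identifiers. All 10 also passed the filter for testing (at least 1 TPM on average across libraries), which 13470 genes passed. TPM scales reads for gene length and library total, so levels of different genes can be compared within a library.

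In G1, the origin recognition complex, Cdc6 and Cdt1 load the ring of Mcm2 to Mcm7 onto DNA as an inactive pair of hexamers, a step called origin licensing. Kinases, Cdc45 and the GINS complex later turn the loaded ring into an active helicase, with Mcm10 acting at that step, and geminin (the product of Gmnn) binds Cdt1 to prevent a second licensing in the same cycle. Most adult haematopoietic stem cells are quiescent, and MCM genes are widely used as marks of cells that have entered the cycle.

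All 6 libraries came from haematopoietic stem cells of mice of the ETV6-RUNX1 genotype, a fusion of a pair of transcription factor genes known from childhood B-cell precursor leukaemia. The 3 uninduced libraries came from mice without doxycycline (no Dox), and the 3 induced libraries from mice given doxycycline in their food for 2 weeks. Cells had been sorted as lineage-negative, Kit-positive, Sca1-positive, CD48-negative and CD150-positive, and total RNA was sequenced. No mice given doxycycline without the fusion were analysed here, so induction and doxycycline cannot be told apart. The age of the mice and the promoter and cell types that drive the fusion are not given in the sources used here. The labels do not say whether libraries of a group came from separate mice, so p-values measure the spread between these samples, which may be technical.

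The composition of the libraries differed between the groups. Nuclear protein-coding genes held 26.6 to 32.9% of the TPM in the uninduced libraries and 20.5 to 23.2% in the induced libraries. The median log2 change of all tested genes, induced minus uninduced, was -0.35 on the deposited scale. It was 0.0032 after median-of-ratios scaling, which sets each library to the typical gene. In limma with Benjamini-Hochberg adjustment at a threshold of 0.05, 1375 genes were lower and 174 higher on the deposited scale, against 418 lower and 388 higher after scaling. Of the sorting markers, Kit was 172 ± 52.0 TPM uninduced and 95.7 ± 6.48 induced, Ly6a (Sca1) 14.2 ± 2.15 and 37.3 ± 6.19, and Slamf1 (CD150) 13.1 ± 2.47 and 7.53 ± 3.30 (SD, n = 3 each). Cd48 ranged from 0 to 3.02 TPM.

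The helicase and licensing genes were lower in the induced libraries as a group. On the deposited scale 9 of the 10 passed the test as lower and 0 as higher, where 10.2% of all 13470 tested genes passed as lower. After median-of-ratios scaling 7 of 10 were lower, beside 3.1% of all tested genes. For 9 of the 10, every induced library lay below every uninduced library, an arrangement that 28.2% of all tested genes had. The median log2 change of the 10 was -2.01 on the deposited scale and -1.62 after scaling. In RNA from bulk sorted cells, fewer cells carrying a transcript and less of it per cell cannot be told apart.

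**Figure D1:**
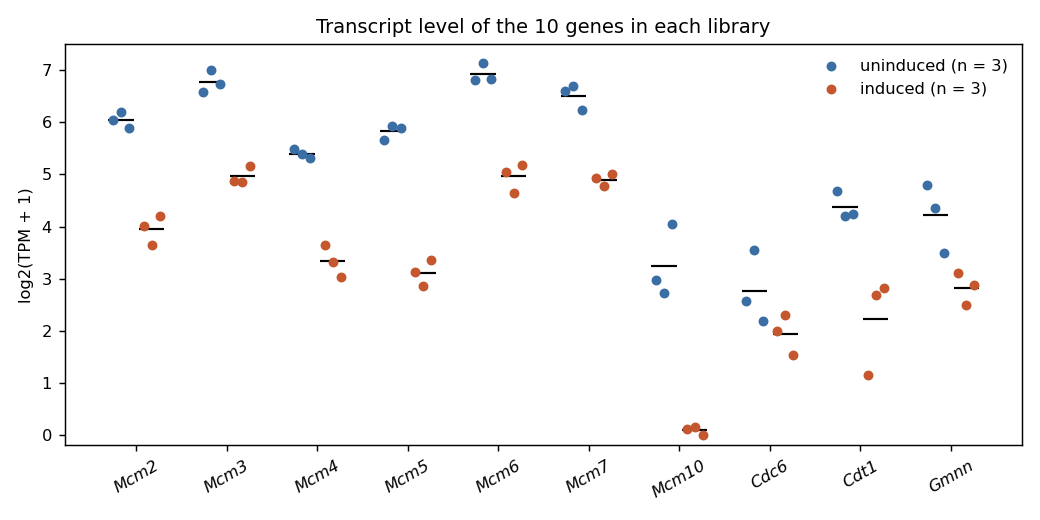
The y axis shows log2(TPM + 1) for each of the 10 genes, with 1 point per library (uninduced in blue, induced in orange, n = 3 each) and a black line at the group mean on this scale. The groups do not overlap for 9 genes, and Cdc6 is the exception.

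The 6 subunits of the ring all fell, with log2 changes from -1.61 for Mcm7 to -2.71 for Mcm5 on the log2(TPM + 1) scale. Their summed level was 459, 545 and 448 TPM in uninduced replicates 1, 2 and 3 and 124, 105 and 135 TPM in induced replicates 1, 2 and 3. The group means were 484 ± 53.3 and 122 ± 15.2 TPM (SD, n = 3 each), a 3.98-fold difference. As a share of the TPM of nuclear protein-coding genes, the sum was 0.163 ± 0.00767% uninduced and 0.0553 ± 0.00365% induced. No induced library reached the range of the uninduced libraries on either measure.

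Mcm5 (ENSMUSG00000005410, chr8:75109569-75128439, plus strand, GRCm38) fell most within the ring. Its product sits at the gate with Mcm2 through which DNA enters the ring. Mcm5 was 49.4, 60.1 and 58.3 TPM in uninduced replicates 1 to 3 and 7.75, 6.25 and 9.27 TPM in induced replicates 1 to 3. The lowest uninduced library was thus far above the highest induced library. The means were 55.9 ± 5.73 and 7.76 ± 1.51 TPM (SD, n = 3 each), 7.21-fold apart. The log2 change was -2.71 (SE 0.23, 95% interval -3.22 to -2.20, limma adjusted p = 0.000310), and -2.33 after scaling (adjusted p = 0.000703). It ranked 41 of 13470 tested genes from the most negative change.

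Mcm2 (ENSMUSG00000002870, chr6:88883474-88898780, minus strand), which also carries a histone-binding tail, was 65.2, 72.9 and 58.0 TPM uninduced and 15.1, 11.6 and 17.4 TPM induced. Its means were 65.4 ± 7.41 and 14.7 ± 2.92 TPM, and its log2 change was -2.09 (SE 0.22, limma adjusted p = 0.000911). Mcm4 (ENSMUSG00000022673, chr16:15623897-15637400, minus strand) was 43.9, 40.8 and 39.0 TPM uninduced and 11.5, 9.04 and 7.23 TPM induced. Both genes were 4.45-fold lower by the means, and neither had overlapping groups. Mcm4, with Mcm6 and Mcm7 part of a subcomplex that has helicase activity of its own in vitro, had means of 41.2 ± 2.47 and 9.27 ± 2.16 TPM. Its log2 change was -2.06 (SE 0.24, limma adjusted p = 0.00152). After scaling the changes were -1.70 for Mcm2 (adjusted p = 0.00150) and -1.67 for Mcm4 (adjusted p = 0.00529).

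Mcm6 (ENSMUSG00000026355, chr1:128331590-128359664, minus strand) had the highest mean of the 10 genes in both groups. Its level was 110.6, 140.6 and 112.9 TPM uninduced and 32.1, 24.1 and 35.4 TPM induced, a 3.98-fold difference of the means. Mcm3 (ENSMUSG00000041859, chr1:20802968-20820312, minus strand), which pairs with Mcm5 in the ring, was 94.7, 127.8 and 105.7 TPM uninduced and 28.4, 27.9 and 35.0 TPM induced, 3.60-fold apart. The induced libraries of both genes were closer to each other in TPM than the uninduced ones and lay wholly below them. The log2 changes were -1.97 for Mcm6 (SE 0.20, limma adjusted p = 0.000835) and -1.81 for Mcm3 (SE 0.19, limma adjusted p = 0.000947). They were -1.56 (adjusted p = 0.00150) and -1.41 (adjusted p = 0.00244) after scaling.

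Mcm7 (ENSMUSG00000029730, chr5:138164583-138172422, minus strand) fell least within the ring. It was 95.6, 103.4 and 74.0 TPM uninduced and 29.3, 26.4 and 31.1 TPM induced, again without overlap. The means were 90.99 ± 15.2 and 28.9 ± 2.37 TPM (SD, n = 3 each), 3.14-fold apart. The log2 change was -1.61 (SE 0.19, 95% interval -2.04 to -1.18, limma adjusted p = 0.00185), and -1.21 after scaling (adjusted p = 0.00314). This interval and that of Mcm5 do not meet. The 6 subunits passed the test as lower under each of the 24 alternative settings tried.

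**Figure D2:**
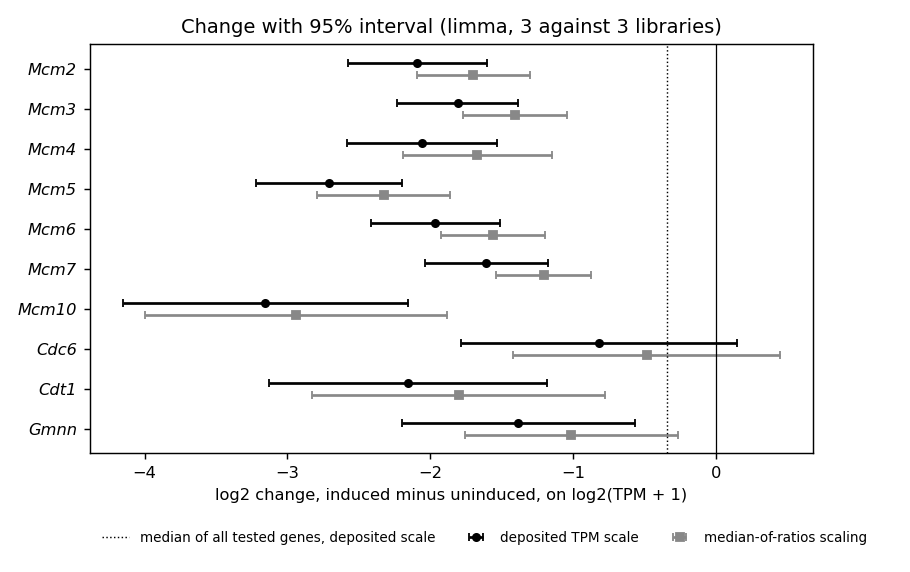
The x axis shows the log2 change, induced minus uninduced, on the log2(TPM + 1) scale, with the 95% interval from limma, on the deposited scale (black circles) and after median-of-ratios scaling (grey squares). The dotted line is the median change of all tested genes, -0.35, and the Cdc6 intervals cross 0.

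The subunits assemble in equal numbers, so the share of each in the summed TPM was compared within libraries. Mcm5 was 10.7, 11.0 and 13.0% of the sum in uninduced replicates 1 to 3 and 6.24, 5.94 and 6.85% in induced replicates 1 to 3. Mcm7 was 20.8, 19.0 and 16.5% uninduced and 23.6, 25.1 and 23.0% induced. The groups did not overlap for either subunit, and the directions were opposite. The shares of a library have a fixed sum, so a lower share of Mcm5 must appear as a higher share elsewhere. The opposite directions are thus not separate results. The mean share of Mcm5 differed by -5.25 percentage points and that of Mcm7 by 5.13, each with p = 0.1 in the exact two-sided permutation test, the smallest p that 3 against 3 libraries allow.

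Among the other subunits, the share of Mcm2 went from 13.5 ± 0.633% to 12.01 ± 0.927% (exact permutation p = 0.1, no overlap). Groups overlapped for Mcm3 (22.5 ± 1.67% and 25.1 ± 1.94%, exact permutation p = 0.3) and for Mcm4 (8.58 ± 1.04% and 7.74 ± 2.11%, exact permutation p = 0.6). The direction for Mcm4 turned to 0.36 points without induced replicate 3. Mcm6 held 25.02 ± 0.863% and 24.96 ± 1.80% (SD, n = 3 each, exact permutation p = 1). A share does not depend on the scaling of the library. As a log2 ratio to the geometric mean of the 6, the differences were -0.75 for Mcm5, 0.47 for Mcm7 and 0.27 for Mcm3 (exact permutation p = 0.1 each) and -0.052 for Mcm2 (exact permutation p = 0.7). Adjusted over the 6 shares by the Benjamini-Hochberg method, the exact p was 0.2 for Mcm2, Mcm5 and Mcm7, 0.45 for Mcm3, 0.72 for Mcm4 and 1 for Mcm6.

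**Figure D3:**
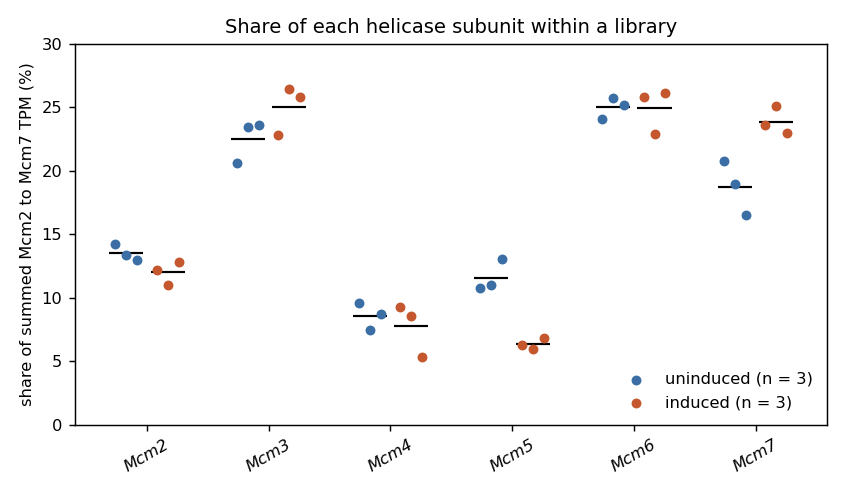
The y axis shows the percentage of the summed Mcm2 to Mcm7 TPM held by each subunit, with 1 point per library (n = 3 per group) and a line at the mean. The induced points lie below the uninduced points for Mcm2 and Mcm5 and above them for Mcm7.

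Genes of this group are known targets of E2F factors, so the stretches before the start of 4 of them are shown: Mcm5, the ring gene that fell most; Mcm6, with the highest mean level; Mcm2, without an E2F motif here; and Mcm10, the lowest in the induced libraries. Sequences are from RefSeq (GRCm38.p6), read 5′ to 3′ on the gene's strand, at chr8:75109309-75109467 for Mcm5, chr1:128359706-128359905 for Mcm6, chr6:88898781-88898980 for Mcm2 and chr2:5012792-5012991 for Mcm10. The Mcm5 stretch stops where the RefSeq gene begins, 41 bases before the start used for its promoter window, and so leaves out the CCAAT box 22 bases before that start. Capitals mark matches, on either strand, to the E2F motif (TTTCCCGC or TTTGGCGC, reverse complements GCGGGAAA and GCGCCAAA), the CCAAT box (CCAAT or ATTGG) and the CHR element (TTTGAA or TTCAAA).
Mcm5: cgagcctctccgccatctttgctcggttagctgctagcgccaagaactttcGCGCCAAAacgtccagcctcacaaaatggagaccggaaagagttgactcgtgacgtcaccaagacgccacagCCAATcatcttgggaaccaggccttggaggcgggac
Mcm6: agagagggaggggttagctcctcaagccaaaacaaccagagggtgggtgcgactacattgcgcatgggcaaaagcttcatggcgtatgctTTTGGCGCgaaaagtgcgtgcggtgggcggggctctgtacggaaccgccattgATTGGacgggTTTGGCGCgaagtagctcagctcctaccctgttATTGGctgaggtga
Mcm2: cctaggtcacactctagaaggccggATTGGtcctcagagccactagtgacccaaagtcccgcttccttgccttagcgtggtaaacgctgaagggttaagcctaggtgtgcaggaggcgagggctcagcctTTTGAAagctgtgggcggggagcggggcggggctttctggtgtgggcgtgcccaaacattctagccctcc
Mcm10: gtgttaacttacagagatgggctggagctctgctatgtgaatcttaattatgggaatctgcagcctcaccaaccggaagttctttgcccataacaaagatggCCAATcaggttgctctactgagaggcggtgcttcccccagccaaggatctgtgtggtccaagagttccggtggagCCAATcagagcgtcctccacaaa

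RefSeq promoter windows, from 250 bases before the start to 50 after it, were matched by symbol for 8 of the 10 genes (9 windows, since Mcm7 had 2); Mcm4 and Gmnn had none in the table used. The E2F motif, searched on both strands, was present in 6 of the 9 windows (Mcm3, Mcm5, Mcm6, Cdt1, Cdc6 and 1 of Mcm7), beside 1.56% of all 32851 windows. It lay 149 bases before the start in Mcm5, 110 and 47 before it in Mcm6, 165 in 1 of the windows of Mcm7 and 138 in Cdc6. These distances are from the start that the RefSeq window uses. In Mcm7 and Cdc6 the gene extends further upstream in the coordinates given here, so their sites lie inside the annotated gene. In Mcm5 and Mcm6 the gene in those coordinates begins further downstream, so their sites lie further from it than these distances. In Mcm3 and Cdt1 the motif lay within the first 50 bases of the transcript. These sites are shown with up to 10 bases on each side and the motif in capitals, at chr1:20820276-20820303 and chr1:20820263-20820284 for Mcm3, chr5:138172031-138172058 for Mcm7, chr8:122568037-122568064 for Cdt1 and chr11:98908003-98908030 for Cdc6.
Mcm3: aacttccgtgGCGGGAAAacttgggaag
Mcm3: cttgggaagtTTTGGCGCcaag
Mcm7: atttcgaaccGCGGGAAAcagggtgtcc
Cdt1: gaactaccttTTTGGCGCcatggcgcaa
Cdc6: ccggtggagaGCGGGAAAtcgcctgggg

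The CCAAT box was in 7 of the 9 windows (those of Mcm2, Mcm3, Mcm5, Mcm6 and Mcm10 and both of Mcm7), beside 37.4% of all windows, and the CHR element in 1 of 9 (Mcm2), beside 17.9%. A match is a description of letters, and its absence says only that they are not in this window. Over the tested genes that have a window, 75 of 333 with the E2F motif passed the test as lower (22.5%), beside 918 of 8471 without it (10.8%). After scaling these shares were 9.61% and 3.19%. For the CHR element the shares were 13.9% with it and 10.8% without it (5.84% and 3.03% after scaling). For the CCAAT box they were 11.9% and 10.8% (4.26% and 2.79% after scaling). The genes described here that have a window were included in these counts. Among the genes described here, Cdc6 holds the E2F motif and did not pass the test, while Mcm2 and Mcm10 have no match to that motif in their windows and fell.

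Mcm10 (ENSMUSG00000026669, chr2:4989714-5012791, minus strand) was the gene closest to absence in the induced libraries. It is no ring subunit but a factor needed for activation of the loaded helicase. Mcm10 was 6.82, 5.64 and 15.5 TPM in uninduced replicates 1 to 3 and 0.0836, 0.118 and 0 TPM in induced replicates 1 to 3. All 3 induced libraries were near 0, while the uninduced libraries were spread, with replicate 3 the highest. The log2 change was -3.15 (SE 0.45, 95% interval -4.15 to -2.15, limma adjusted p = 0.00386) and -2.94 after scaling (adjusted p = 0.0106). It passed the filter only through the uninduced libraries, so its test and its place in the count of 9 lower genes rest on the group where it is high. The size rests on the value added before the logarithm: it ran from -5.75 to -1.44 over 23 alternative settings, all of which kept the call.

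The loading factors were Cdt1, which fell, and Cdc6, which did not pass the test. Cdt1 (ENSMUSG00000006585, chr8:122568015-122573554, plus strand), which brings the ring to the origin, was 24.7, 17.3 and 18.0 TPM uninduced and 1.22, 5.43 and 6.05 TPM induced. The groups did not overlap, and induced replicate 1 was well below the other two. The means were 19.97 ± 4.08 and 4.23 ± 2.63 TPM (SD, n = 3 each), and the log2 change was -2.16 (SE 0.44, 95% interval -3.13 to -1.18, limma adjusted p = 0.0142). After scaling it was -1.80 with adjusted p = 0.0524, which missed the threshold. The call was also lost without uninduced replicate 1 (adjusted p = 0.0529), and in 10 of 24 alternative settings in all.

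Cdc6 (ENSMUSG00000017499, chr11:98907801-98923940, plus strand), the ATPase that completes the loading platform on the origin recognition complex, was 4.94, 10.7 and 3.54 TPM uninduced and 2.995, 3.95 and 1.88 TPM induced. The groups overlapped, since induced replicate 2 was above uninduced replicate 3. The means were 6.38 ± 3.78 and 2.94 ± 1.03 TPM, with a log2 change of -0.82 (SE 0.43, 95% interval -1.78 to 0.14, limma adjusted p = 0.249). After scaling it was -0.49 (adjusted p = 0.551). The interval on the deposited scale reaches the estimate for Mcm7 but not those for the other 5 ring genes, and it does not meet the interval for Mcm5. The difference between Cdc6 and the ring genes was not itself tested. Without uninduced replicate 2, the highest library, the log2 change of Cdc6 was -0.43. Cdc6 passed the test under none of its 23 alternative settings (adjusted p from 0.150 to 0.878).

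Gmnn (ENSMUSG00000006715, chr13:24751845-24761923, minus strand), the licensing inhibitor, was 26.9, 19.4 and 10.2 TPM uninduced and 7.68, 4.60 and 6.35 TPM induced. The groups did not overlap, but uninduced replicate 3 came close to the highest induced library. The means were 18.8 ± 8.36 and 6.21 ± 1.54 TPM, and the log2 change was -1.39 (SE 0.36, 95% interval -2.20 to -0.57, limma adjusted p = 0.0386). After scaling it was -1.01 with adjusted p = 0.112, so the call was lost. It was lost in 17 of 24 alternative settings, among them those without uninduced replicate 1 or 2 or any induced replicate. Over the settings the adjusted p ran from 0.0169 to 0.267.

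The balance of inhibitor to loader, as the log2 ratio of Gmnn to Cdt1 (each TPM + 1), was 0.12, 0.16 and -0.76 in uninduced replicates 1 to 3 and 1.97, -0.20 and 0.060 in induced replicates 1 to 3. The groups overlapped. The mean was -0.16 ± 0.52 uninduced and 0.61 ± 1.18 induced (SD, n = 3 each, exact two-sided permutation p = 0.6). The difference of 0.77 was 0.091 without induced replicate 1. Mcidas and Gmnc, relatives of geminin that act in multiciliated cells, were listed at 0 TPM in all 6 libraries.

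The order of the 10 levels shared its first 4 places between the groups. In the uninduced libraries it ran Mcm6, Mcm3, Mcm7, Mcm2, Mcm5, Mcm4, Cdt1, Gmnn, Mcm10 and Cdc6 from high to low. Neighbours in that order overlapped over libraries except Mcm7 and Mcm2, Mcm5 and Mcm4, and Mcm4 and Cdt1. In the induced libraries it ran Mcm6, Mcm3, Mcm7, Mcm2, Mcm4, Mcm5, Gmnn, Cdt1, Cdc6 and Mcm10, and only Mcm7 and Mcm2, Mcm2 and Mcm4, and Cdc6 and Mcm10 had separate ranges. Among the tested genes, Mcm6 moved from percentile 96.1 of the mean level to 86.4, Mcm5 from 90.8 to 50.2, and Mcm10 from 47.6 to 0.609. The high and low libraries were shared by much of the ring: uninduced replicate 2 was the highest of its group for 5 of 6 subunits. Induced replicate 3 was the highest and induced replicate 2 the lowest of theirs for 5 of 6 each. This holds on the deposited scale, where the same libraries also had the highest or lowest scaling factor of their group (1.27, 0.942 and 0.825). As a share of protein-coding TPM, the summed ring was highest in uninduced replicate 3 (0.168%, beside 0.166% in replicate 2).

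A pair of ring genes share their start region with a neighbour. These neighbours were listed for their position, and the ratios below were chosen after their values were seen, so their tests are not independent evidence. Mcm4 and Prkdc, a DNA repair kinase gene, run away from each other with 43 bases between their RefSeq starts. Prkdc was 3.79, 7.49 and 3.89 TPM uninduced and 4.38, 2.55 and 2.18 TPM induced, with overlap (log2 change -0.57, limma adjusted p = 0.383). The log2 ratio of Mcm4 to Prkdc, on TPM + 1, was 2.85 ± 0.49 uninduced and 1.36 ± 0.14 induced, without overlap (exact permutation p = 0.1).

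Mcm7 and Ap4m1, which encodes an adaptor protein subunit of vesicle transport, overlap by 91 bases at their 5′ ends in RefSeq, where Mcm7 ends at 138172111 and so is shorter than in the GENCODE coordinates given above. Ap4m1 was 13.3 ± 2.69 TPM uninduced and 11.4 ± 0.364 induced (log2 change -0.19, limma adjusted p = 0.664; 0.19 after scaling, adjusted p = 0.690). The log2 ratio of Mcm7 to Ap4m1 was 2.69 ± 0.20 and 1.27 ± 0.16, again without overlap (exact permutation p = 0.1). The E2F motif of the Mcm7 window, at chr5:138172041-138172048, is the same stretch that stands 21 bases into the Ap4m1 transcript. The microRNA genes Mir106b, Mir93 and Mir25, inside an intron of Mcm7, were listed at no more than 0.515 TPM in any library. They were below the filter and were not tested. No library of small RNA was analysed here, so these values are not levels of the mature microRNAs.

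Beyond the 10 genes, 63 genes from 5 lists of the surrounding pathway were tested: 38 passed as lower and 0 as higher (21 and 0 after scaling), beside 10.2% and 3.1% of all tested genes as lower. Of the 38, 7 had an induced mean under 1 TPM (Mcm8, Cdc45, Gins2, Ticrr, Recql4, Pole2 and Ccne1) and so passed the filter only through the uninduced libraries where they are high, and the count is no support by itself. These lists were chosen with earlier results of these data known. Without 1 library, the count of lower genes was 20 to 30, with its low of 20 without uninduced replicate 2. Their medians differed, from -0.54 for the origin recognition genes to -1.68 for the replication fork genes, beside -0.35 for all tested genes.

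Of the origin recognition list (Orc2 to Orc6, subunits of the complex that marks origins and recruits Cdc6, and Lrwd1, a protein that binds it), 1 of 6 tested genes passed as lower and 0 as higher, and 0 as lower after scaling, against the same 10.2% and 3.1% of all tested genes. Orc3 was 23.0 ± 3.85 TPM uninduced and 10.4 ± 1.04 induced (log2 change -1.07, limma adjusted p = 0.0215, 0.103 after scaling). Its call was lost on leaving out any library but uninduced replicate 3. Orc6 had a log2 change of -0.66 (limma adjusted p = 0.149) and Orc5 of -0.032 (limma adjusted p = 0.964; 0.31 after scaling). Orc1, the subunit whose level varies most with the cycle, was below the filter, at 1.37, 1.74 and 0.611 TPM uninduced and 0, 0.481 and 0 TPM induced. Of the other MCM genes, Mcm8, a helicase of recombination repair, was 4.83 ± 2.23 and 0.360 ± 0.268 TPM (log2 change -2.04, limma adjusted p = 0.0202, 0.0402 after scaling). Its call was lost on leaving out replicate 1 or 2 of either group. Mcm9, the partner of Mcm8, had a log2 change of -0.47 (limma adjusted p = 0.396), and Mcmbp, an MCM chaperone, of -0.84 (limma adjusted p = 0.0851).

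Of the genes that turn the loaded ring into a helicase, 9 of 12 passed as lower and 0 as higher (3 and 0 after scaling). This stands beside 10.2% of all tested genes as lower, and 3.1% after scaling. Of the 9, 4 (Cdc45, Gins2, Ticrr and Recql4) passed the filter only through the uninduced libraries, where they are high. Cdc45, the helicase cofactor, was 4.95, 17.4 and 12.0 TPM uninduced and 0.268, 1.03 and 1.63 TPM induced, without overlap. Its log2 change was -2.57 (limma adjusted p = 0.0109, 0.0292 after scaling). Gins2, a subunit of the GINS complex, was 9.19 ± 1.62 and 0.993 ± 0.181 TPM (log2 change -2.35, limma adjusted p = 0.00415, 0.00986 after scaling), while Gins3 had a log2 change of -0.60 (limma adjusted p = 0.430). Cdc7, the kinase that phosphorylates the ring, was 6.75 ± 2.09 and 1.66 ± 1.42 TPM. Its log2 change of -1.64 passed (limma adjusted p = 0.0456), but not after scaling (0.138) nor on leaving out any library except induced replicate 2. Dbf4, the activator of Cdc7, had overlapping groups and a log2 change of -0.71 (limma adjusted p = 0.327).

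Of the replication fork genes, 20 of 27 passed as lower and 0 as higher (14 and 0 after scaling). Among all tested genes 10.2% passed as lower, and 3.1% did after scaling. Prim1, the primase subunit that makes RNA primers, was 24.7 ± 3.64 TPM uninduced and 2.53 ± 1.52 induced (log2 change -2.93, limma adjusted p = 0.00170). Clspn, a fork checkpoint mediator, was 15.7 ± 1.72 and 1.54 ± 0.540 TPM (log2 change -2.73, limma adjusted p = 0.00159). Pcna, the sliding clamp that also recruits the ligase destroying Cdt1, was 111 ± 18.1 and 40.8 ± 10.2 TPM (log2 change -1.43, limma adjusted p = 0.00464, 0.0145 after scaling). Pold4, a small polymerase delta subunit, had the most positive log2 change of the list, 1.05, with overlapping groups (limma adjusted p = 0.241). It was 5.90 TPM in induced replicate 1, the highest library, and without that library its log2 change was 0.57.

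Of the genes that control licensing through the cycle, 7 of 15 tested passed as lower and 0 as higher (3 and 0 after scaling). The share of all tested genes passing as lower was 10.2%, and 3.1% after scaling. Of the 7, Ccne1 passed the filter only through the uninduced libraries, where it is high. Ccna2, the S-phase cyclin, was 15.3 ± 3.53 and 2.06 ± 1.31 TPM (log2 change -2.48, limma adjusted p = 0.00525). Ccne1, the G1/S cyclin, was 4.92 ± 1.36 and 0.316 ± 0.274 TPM (log2 change -2.16, limma adjusted p = 0.0121). The call of Ccne1 was lost without uninduced replicate 2. Fzr1, an activator of the ligase that destroys geminin, had a log2 change of -0.32 (limma adjusted p = 0.511) and Fbxo31 of -0.12 (limma adjusted p = 0.820). Both were above 0 after scaling, at 0.065 and 0.23. Skp2 was listed at 0 TPM in all 6 libraries.

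**Figure D4:**
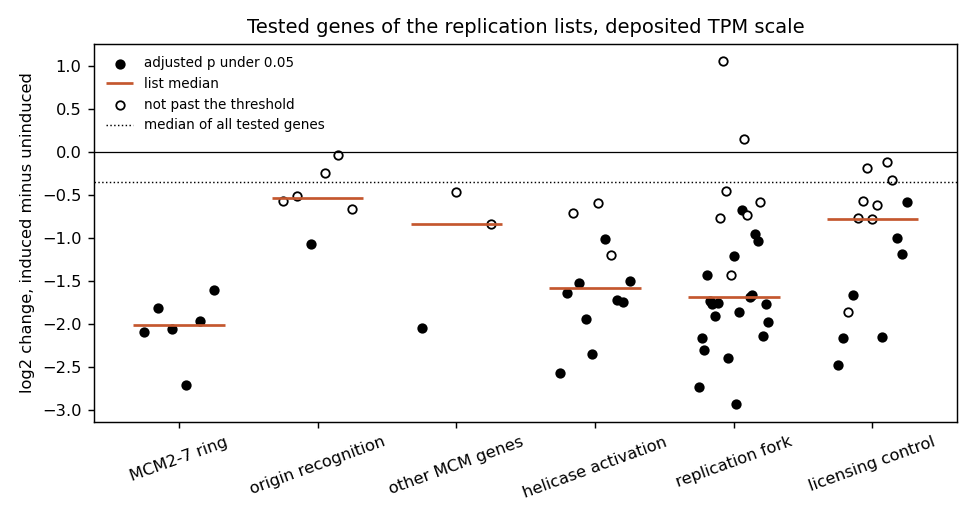
The y axis shows the log2 change, induced minus uninduced, of each tested gene on the deposited scale, in columns for the MCM ring and the 5 pathway lists. Filled points passed the limma test, open points did not, the coloured line is the list median (from -0.54 to -2.01) and the dotted line is the median of all tested genes.

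Markers of other cells moved beside these genes. Of all tested genes, 1.29% were higher on the deposited scale and 2.88% after scaling. Of 9 tested erythroid genes 6 were higher and 0 lower in the induced libraries on either scale, and the summed level of the 10 listed was 59.5 to 75.4 TPM uninduced and 405 to 468 TPM induced, led by the globin Hbb-bs (15.2 ± 7.29 and 177 ± 22.3 TPM). Epor, at 3.37 ± 1.24 TPM uninduced and 0.485 ± 0.839 induced, and Tfrc, at 9.39 ± 4.96 and 4.26 ± 1.27, had negative changes that did not pass; both were named after their values were seen. Of 5 tested progenitor genes 1 was higher and 0 lower (2 and 0 after scaling), with sums of 99.3 to 106 TPM and 128 to 134 TPM. The members differed in direction: Prtn3, which passed, was 18.9 ± 2.50 TPM uninduced and 42.3 ± 6.18 induced and Cd34 49.5 ± 6.06 and 71.5 ± 11.2, but Mpo was 19.6 ± 11.2 and 7.84 ± 3.32 and Elane 7.33 ± 1.05 and 3.41 ± 3.16. These 4 were named after their values were seen. Megakaryocyte sums overlapped, at 102 to 135 TPM and 119 to 129 TPM, but of 5 tested genes 2 were higher, Ppbp and Pf4, and 1 lower, Gp9 (2 and 0 after scaling). These 3, named after their values were seen, differed in level, and Ppbp reached the filter only through the induced libraries: Ppbp was 0.292 ± 0.506 TPM uninduced and 11.03 ± 4.04 induced, Pf4 28.4 ± 11.2 and 60.7 ± 8.62, and Gp9 16.7 ± 6.34 and 2.96 ± 2.51. Of the lymphoid genes 5 of 6 were listed at 0. Of 9 stem cell genes, all detected, 3 were higher and 2 lower (4 and 1 after scaling). The part of these shifts in the lower helicase and licensing transcripts was not tested.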

How the data were processed

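Transcript levels were analysed as TPM, as the authors deposited them in 1 table with a column per library. The submitters' processing notes name bcl2fastq, HISAT2, StringTie, DESeq2 and GRCm38, with no version; the annotation release and read filters are not given in the sources used here. The libraries were made with a stranded pico-input total RNA kit, per the labels' protocols. TPM keeps no depth, so the depth of each library is unknown. The deposited table also holds GC content in percent, which was not used. The 60496 rows were summed per gene ID to 55471 IDs; no gene reported here as 1 of the 10 had repeated rows. Coordinates were taken from the GENCODE annotation by gene ID, on GRCm38; 99.9% of the tested IDs matched.

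Genes averaging at least 1 TPM were tested on log2(TPM + 1) values of the deposited table, with limma 3.58.1 in R 4.3.3 (variance trend, two-sided, Benjamini-Hochberg adjustment over all 13470 genes, threshold 0.05). This scale understates changes of low genes. Shares and ratios were compared by exact permutation. The fit was tested on simulated data. The members and lists were chosen with earlier results of these data known. Named were the 10 genes, a few listed pathway genes (Orc1, Orc6, Cdc45, Cdc7, Dbf4, Pcna, Mcmbp and Fzr1), and in each pathway list the 2 tested genes with the most negative and the 1 with the most positive change. Alternatives were other pseudocounts, filters, scalings and variance models, a block for the replicate number and fits lacking 1 library. Median-of-ratios scaling combined with the block or with a library left out was added after seeing the data. The protein sequences were not analysed here.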

Additional observations from a re-analysis of the deposited data

How the results depend on the processing

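Between 7 and 9 of the 10 genes passed as lower, and 0 as higher, under every setting tried, including each library left out. With a mean of at least 5 TPM, Mcm10 and Cdc6 were not tested. The 1549 calls over all genes became 752 with no expression filter, 767 with no variance trend, 806 after median-of-ratios scaling (388 higher, 418 lower), 814 after quantile normalization (374 and 440) and 886 on rescaling to protein-coding genes (435 and 451). Leaving out 1 library gave 611 (without induced replicate 2) to 1276 calls, and 331 to 469 with scaling as well. The 38 lower pathway genes became 23 with no filter, 21 after median-of-ratios scaling or quantile normalization, and 24 on protein-coding rescaling. Leaving out 1 library gave 20 to 30, and 8 to 13 with scaling as well. The cause of these shifts was not tested, except that fewer libraries enter the fits with a library left out.

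Some small changes that passed no test turned sign. Under median-of-ratios, quantile and protein-coding scaling in turn, the log2 change was 0.31, 0.30 and 0.37 for Orc5, 0.23, 0.22 and 0.29 for Fbxo31, 0.065, 0.060 and 0.099 for Fzr1, and 0.19, 0.17 and 0.23 for Ap4m1. Leaving out a library, on the deposited or the median-of-ratios scale, gave Orc5 -0.31 to 0.47, Fbxo31 -0.22 to 0.29, Fzr1 -0.57 to 0.31, Ap4m1 -0.27 to 0.28, Gins3 -0.91 to 0.079 and Dbf4 -1.15 to 0.0060. The share difference on leaving out a library ran from -1.61 to 0.36 points for Mcm4 and from -0.66 to 0.98 for Mcm6. As a log2 ratio to the geometric mean of the 6 subunits, the Mcm6 difference was 0.11.

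The groups share replicate numbers, which no label says mark related libraries. Deviations of same-numbered libraries correlated at -0.015 to 0.021. This shows no large shared deviation, but it cannot tell whether the libraries are related. With a replicate block, calls over all genes were 902, with 9 of the 10 genes and 27 pathway genes lower. With the block and scaling they were 451, 7 and 15, and Orc5, Fbxo31, Fzr1 and Ap4m1 were again at 0.31, 0.23, 0.065 and 0.19. TPM keeps no depth, so no counting error can be given for low values such as those of Mcm10.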
